A study of Saccharomyces cerevisiae with 16 samples.

Results

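The Pol2 IP over input in wild-type yeast was measured on 4 of the 16 arrays of this series, numbered 039, 086, 136 and 230, which were chosen by their titles. Pol2 is the catalytic subunit of DNA polymerase epsilon, an enzyme that extends the leading strand at replication forks. Nuclear loci are copied once per cell cycle. In an asynchronous culture the recovery of the polymerase at such a locus is therefore averaged over cells in all phases. No such reading is made for mitochondrial DNA. Forks are known to slow at tightly bound proteins, among them those at tRNA genes, centromeres, telomeres, the silent mating cassettes and the ribosomal DNA, and the Rrm3 helicase is known to help them past such places.

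All cells were haploid W303a growing asynchronously in rich medium (YEPD). The wild-type arrays carried DNA recovered with a MYC antibody from cells with a Pol2-13MYC tag, set against total genomic input DNA. The first comparison group was the same Pol2-13MYC IP on 6 arrays labelled rrm3 delete, and the second was the IP of Rrm3-13MYC on 5 arrays. The culture density was given as an OD of 0.25, except for array 086, whose text gives growth at 30 degrees and no density. The arrays held PCR products, each spot standing for an open reading frame (ORF), an intergenic region or another named feature. No IP from cells without a tag was analysed here, so values are relative to the median of each array and not to a mock IP.

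Array 136 has no settled direction. Its labels place the IP in Cy5, yet the deposited column is turned as for a dye swap, and 49.7% of its spots were flagged, which left 6810 features against 12636 to 12773 on the other wild-type arrays. As deposited, it correlated with the other 15 arrays at 0.15 to 0.54 across features, and as labelled at -0.54 to -0.15. Its Cy5 signals followed the input channel of arrays 039, 086 and 230 (Spearman's rho 0.72, 0.72 and 0.69) more closely than their IP channel (0.69, 0.70 and 0.61). This comparison does not settle the direction by itself, since the IP channels of arrays 039 and 086 also followed the input channel of array 230 (0.64 and 0.71) more closely than its IP channel (0.61 and 0.69). The deposited direction is used below. The labelled one is given beside it for counts of calls and for many classes, lists and named features. Results by neighbour, ORF orientation, chromosome and input brightness are given in the deposited direction alone. The extraction text of array 086 also names an antibody to a histone mark, so its IP is not settled either. In wild type the input signal of the RRM3 feature lay between percentiles 30.9 and 90.3, while on 4 arrays labelled rrm3 delete it was between 0.98 and 2.20. Array 239 carries the same label, but its RRM3 input lay at percentile 49.7, which goes against it.

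Across features, arrays 039 and 086 correlated at 0.60 and arrays 136 (as deposited) and 230 at 0.54, while the other 4 pairs were at 0.255 to 0.383. Within an array, spots of the same name differed by a median SD of 0.13 to 0.16 on the log2 scale, and between the 4 arrays the median SD of a feature was 0.24. Of 12518 features measured on at least 3 wild-type arrays, 121 were higher than the array median (0.967% of those tested) and 293 lower (2.34%) at a limma adjusted p under 0.05. The same sign on every array that measured them was found for 117 of the higher and 293 of the lower features. Of all 12518 tested, 5209 (41.6%) had 1 sign on every array. The calls were made from the same values, so their like signs were favoured by that choice. More than 1 log2 unit, a factor of 2, separated 35 of the higher and 129 of the lower features from the median. With array 136 as labelled, 5 were higher and 29 lower. All 34 were among the calls above and none was measured on array 136.

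These counts rest on single arrays. The higher and lower counts were 16 and 63 without array 039, 30 and 104 without array 086, 55 and 188 without array 136 and 32 and 91 without array 230. Without array 031 of the Rrm3 IP the counts were 447 and 649, and without array 239 the higher count was 77. Arrays with the IP in Cy5 alone gave 0 higher and 10 lower features (465 and 701 at an unadjusted p under 0.05), and those read as carrying it in Cy3, with array 136 among them, gave 57 and 83. Of the 66 called features named below or in the gene groups, 25 kept their call when each wild-type array was left out in turn.

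Among ORFs, 80 of 6084 were higher and 80 lower (1.31% each), with a median of 0.05. In what follows, values per array are log2 ratios of IP over input in the order 039, 086, 136 and 230, and fitted means carry their standard error (SE). Where array 136 gave no value the fitted mean is adjusted for dye and need not equal the plain average. TEF2, a gene for the elongation factor that brings aminoacyl-tRNA to ribosomes, had 1.63, 1.22, 1.54 and 1.42, a fitted 1.45 ± 0.25 (n = 4, 2.73-fold, limma adjusted p = 0.00497). PDC1, the main pyruvate decarboxylase gene of fermentation, had 1.48, 0.84, 1.70 and 1.07 (1.27 ± 0.18, n = 4, adjusted p = 0.00154). CCW12, a gene for a cell wall mannoprotein, was the most even of them at 1.24, 1.16, 1.29 and 1.21 (1.22 ± 0.16, n = 4, adjusted p = 0.00111). All 3 genes lay above the median on every array, which the rule for naming them required. The spread between arrays was small beside their distance from the median, as a call made from the same values favours.

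SML1, which encodes an inhibitor of ribonucleotide reductase, had 1.19, 0.89, 1.33 and 1.29 (1.18 ± 0.18, adjusted p = 0.00187). CAR2, whose transaminase acts on ornithine when arginine is broken down, had 1.41, 1.28 and 1.24 on arrays 039, 086 and 230 (1.27 ± 0.18, n = 3, adjusted p = 0.00181). PDC1, CCW12, SML1 and CAR2 kept their call without each wild-type array. The other high ORFs were RPL3 (a ribosomal protein gene, 1.32 ± 0.31), YAR040C (1.29 ± 0.32), PET122 (needed for translation of a mitochondrial message, 1.26 ± 0.29), SWH1 (an oxysterol-binding protein gene, 1.25 ± 0.21), LDB7 (a subunit of the RSC chromatin remodeller, 1.22 ± 0.29) and GLY1 (threonine aldolase, 1.17 ± 0.28). YAR040C, PET122, SWH1 and LDB7 had inputs below percentile 10. SSB2, a ribosome-associated Hsp70 gene, stood highest at 2.95 ± 0.45 (n = 3), but arrays 039, 086 and 136 gave 0.42, 3.05 and 4.16, and the dimmer channel read only 21 to 23 units above background, where the median spot on these arrays read 468 to 1012.

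**Figure D1:**
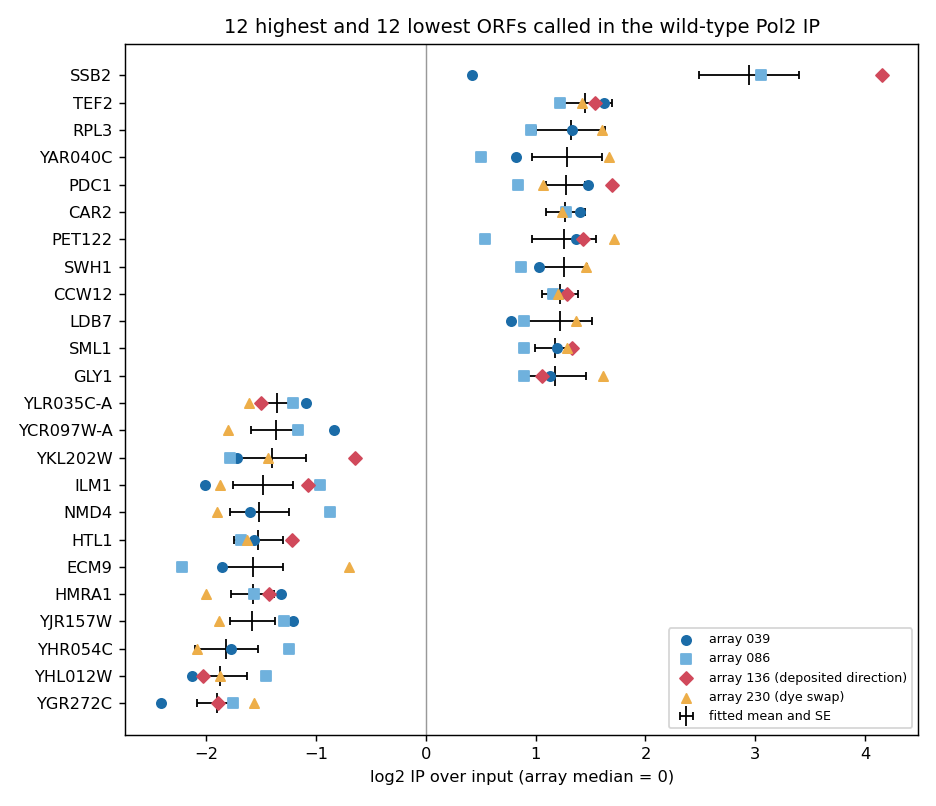
Log2 IP over input (x axis, array median at 0) of the 12 highest and 12 lowest called ORFs (y axis), with 1 symbol per wild-type array and the fitted mean with its SE. Apart from SSB2, the higher ORFs have fitted means from 1.17 to 1.45 and the lower ones from -1.91 to -1.35.

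The lowest ORF was YGR272C, with -2.41, -1.76, -1.89 and -1.57 (-1.91 ± 0.18, n = 4, adjusted p = 5.24e-05), and the adjoining region IYGR271W was at -1.68 ± 0.20. YHL012W, related by sequence to UTP-glucose uridylyltransferases, had -2.13, -1.46, -2.03 and -1.88 (-1.87 ± 0.24, adjusted p = 0.000454). YHR054C, which lies in the tandemly repeated CUP1 region, had -1.78, -1.25 and -2.08 on the 3 arrays that measured it (-1.82 ± 0.29), with an input at percentile 98.2. HMRA1, in the silent mating cassette on the right arm of chromosome III, had -1.32, -1.56, -1.43 and -2.01 (-1.58 ± 0.19, adjusted p = 0.000332). These 4 were below -1.2 on every array that measured them, and all kept their call without each wild-type array. A call and 1 sign on every array were the conditions for naming them.

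HTL1, which encodes another subunit of the RSC remodeller, lay below the median where LDB7 lay above it, at -1.57, -1.68, -1.22 and -1.63 (-1.52 ± 0.23, adjusted p = 0.00181). The remaining low ORFs had fitted means from -1.58 to -1.35: YJR157W, ECM9, NMD4 (a gene of nonsense-mediated decay), ILM1, YKL202W, YCR097W-A and YLR035C-A. ECM9 was the least even, at -1.85, -2.22 and -0.70. ORFs without a locus tag in the R64 reference table were called lower in 12 of 510 cases (2.35%), and those with one in 68 of 5574 (1.22%). Turning array 136 as labelled ended the call of every one of these 24 ORFs that it measured, apart from SSB2, which could not be fitted that way: TEF2 was then at 0.75, PDC1 at 0.37, CCW12 at 0.60, YGR272C at -1.01 and HMRA1 at -1.05. CAR2 (adjusted p = 0.00820), SWH1 (0.0244), YHR054C (0.0148), YJR157W (0.00532), ECM9 (0.0244), NMD4 (0.0244) and YCR097W-A (0.0173), none of them measured on it, remained past the threshold. RPL3, YAR040C and LDB7 did not (0.101 to 0.137), although array 136 gave no value for them.

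Gene groups are described by their median and their calls, to be read against 0.967% higher and 2.34% lower among all features. Of all 6084 ORFs tested, 3488 had a fitted mean above 0. All 19 measured genes of glycolysis and fermentation had fitted means above the median, with a list median of 0.73 and array medians of 0.75, 0.43, 0.91 and 0.83. On the single arrays 19 of 19, 17 of 18, 11 of 13 and 18 of 19 were above the median. PDC1, GLK1 (glucokinase, 0.89 ± 0.17, n = 3) and ADH1 (alcohol dehydrogenase, 0.73 ± 0.19, n = 4) passed the test. All 22 plasma membrane and cell wall genes were also above it (median 0.46), 4 of them past the threshold: CCW12, the proton pump gene PMA1 (1.21, 0.88, 0.98 and 0.99), the phosphate transporter gene PHO84 (0.85, 0.49, 1.16 and 1.20) and the cell wall glucanase gene SCW10 (0.52 ± 0.13). Array medians of that group stayed between 0.42 and 0.57.

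Of 14 genes for translation factors, TEF2, YEF3 (elongation factor 3, 0.93 ± 0.17) and HYP2 (eIF5A, 0.91 ± 0.14) were higher, and the list median was 0.24. The ribosomal protein genes had a median of 0.25, with 105 of 128 above 0 and 6 called: RPL3, RPL8A (0.99 ± 0.20), RPL8B (0.93 ± 0.15), RPL4B (0.84 ± 0.15), RPS2 (0.81 ± 0.18) and RPS15 (0.71 ± 0.18). Genes of amino acid biosynthesis were above 0 in 44 of 49 cases (median 0.23), and ILV3, of branched-chain amino acid synthesis (0.86, 0.82, 0.48 and 0.80), and CYS3, of cysteine synthesis (0.96, 0.88, 0.65 and 1.07), passed. Amino acid permeases (median 0.26, 18 genes), ergosterol biosynthesis (0.15, 23 genes) and histones (0.23, 10 genes) had no call, their highest members being BAP2, a branched-chain amino acid permease gene, at 0.78 ± 0.25, ERG10 at 0.45 ± 0.19 and the histone H3 gene HHT2 at 0.65 ± 0.27.

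The genes of DNA polymerase epsilon itself showed no call. POL2, the tagged gene, was at 0.07, 0.16, 0.21 and 0.03 (0.12 ± 0.18), DPB2 at -0.18 ± 0.24 and DPB3 at -0.41 ± 0.21. DPB4 was at 0.85 ± 0.27 (n = 3), with an input at percentile 3.7. The 44 other genes of replication forks and origins had a median of 0.10 and no call, between TOP2, the topoisomerase II gene, at -0.50 ± 0.14 and CSM3, of the fork protection complex, at 0.73 ± 0.26. That median was -0.043 with array 136 as labelled and -0.0031 without it. Nuclear genes of the respiratory chain were at -0.05 (34 genes, no call). The proteasome list (median 0.09) held 1 lower gene of 30, RPN8 (-0.60 ± 0.14), and the ribosome biogenesis list (0.11, or -0.015 with array 136 as labelled) 1 lower of 40, UTP9 (-0.87 ± 0.21). The respiratory chain median was 0.12 with the IP in Cy3 alone. Among 33 genes silent or repressed in haploid cells on glucose (median -0.03), only the galactose sensor gene GAL3 passed, at 0.10, 1.07 and 1.15 on arrays 039, 086 and 230 (0.92 ± 0.23), with an input at percentile 5.7.

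The silent mating cassettes lay lowest of the gene groups examined, at a median of -1.06 over 4 ORFs. HMLALPHA2 had -1.35, -1.15, -1.05 and -0.91 (-1.12 ± 0.19), and HMRA2 had -1.24, -0.93 and -0.90 without array 136 (-1.0 ± 0.22). Both were past the threshold, as was HMRA1, while the remaining ORF of the list, at -0.14, was not. Whether these spots share sequence with the expressed mating type locus was not tested. Turned as labelled, array 136 left the list medians at 0.50 for glycolysis and fermentation, 0.38 for plasma membrane and cell wall genes, 0.16 for translation factors, 0.14 for ribosomal proteins, 0.15 for amino acid biosynthesis and -0.79 for the silent cassettes. Of the called members of these lists, GLK1, which array 136 did not measure, alone kept its call (adjusted p = 0.0490).

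Of 5978 intergenic regions, 165 were lower (2.76%) and 35 higher (0.585%), and their median was -0.02. Among all features the shares were 2.34% lower and 0.967% higher. A region takes the name of the ORF before it, with the letter I in front. The highest by the naming rule was IYHR088W, with 0.42, 4.67, 4.08 and 1.95 (2.78 ± 0.59), whose dimmer channel read 5 units above background on arrays 086 and 136. IYMR244W had 0.93, 1.06, 0.88 and 1.92 (1.20 ± 0.26) and IYPR080W 1.16, 0.70, 1.07 and 1.38 (1.08 ± 0.26). IYOL005C (1.24 ± 0.30), IYDR018C (1.08 ± 0.29) and IYHR140W (1.08 ± 0.20, also dim) were not measured on array 136. At the low end, IYELCDELTA4 had -4.50, -1.68 and -0.998 (-2.29 ± 0.43), IYELWDELTA5 -2.27, -2.12 and -1.61 (-2.0 ± 0.20) and IYPRWDELTA14 -2.48, -1.89, -1.61 and -1.23 (-1.80 ± 0.23). These 3 adjoin delta elements, the LTRs of Ty1 and Ty2, by their names. IYCL065W-0 (-1.79 ± 0.30), by its name near the left silent cassette, and IYGR071C (-1.67 ± 0.23) were also low.

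By neighbour, 33 of the 241 regions beside an LTR or Ty element were lower (13.7%) and 1 higher, with a median of -0.27. Of the 5443 regions named for an ORF, 126 were lower (2.31%, near the 2.34% of all features) and 33 higher (median -0.02). The 239 regions beside a tRNA gene had a median of 0.02 with 2 lower, and the 15 beside a centromere -0.18 with 2 lower. Regions between convergent ORFs had a median of 0.07 (1245 regions, 8 higher and 24 lower), those between divergent ORFs -0.03 (1223, 14 and 18) and those between tandem ORFs -0.03 (2302, 11 and 60). Convergent regions were above 0 on arrays 039 and 230 (0.02 and 0.12) and below it on arrays 086 and 136 (-0.04 and -0.05). Their input was also dimmer, at a median percentile of 39.7 against 53.7 for divergent and 50.5 for tandem regions, and the part of this in the medians was not tested. Turned as labelled, array 136 left 20 intergenic regions past the threshold, among them IYELWDELTA5 (adjusted p = 0.000681), IYGR271W (0.00465), IYGR071C (0.00820), IYCL065W-0 (0.0194) and IYELCDELTA4 (0.0432).

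Neighbouring features resembled one another. Along the chromosomes, in the order of the R64 reference table, the fitted mean of each ORF or intergenic region correlated with that of the next at 0.31 over 10333 pairs, and on single arrays at 0.15 to 0.28. Between ORFs the correlation was 0.26 for adjacent ORFs, 0.14 for the ORF 2 further on, 0.08 for 5 and 0.05 for 10. These values are descriptions across features that share arrays and, for neighbours, sheared fragments. Of 170 ordered features called lower, 28 adjoined another lower one, and of 101 called higher 14 adjoined another higher one.

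The longest lower run was the right silent cassette on chromosome III, where HMRA2, the region IYCR096C (-1.62 ± 0.20), HMRA1 and the region IYCR097W (-0.64 ± 0.15) were called in a row. FIG1, a gene of mating (-1.32 ± 0.16), was lower together with both flanking regions, IYBR039W (-0.94 ± 0.21) and IYBR040W (-1.04 ± 0.20). HTL1 was lower with both of its flanks, IYCR020C-A (-1.03 ± 0.21) and IYCR020W-B (-0.90 ± 0.14). Other lower pairs included YHL012W with IYHL013C, YHR054C with IYHR053C, ECM9 with IYKR004C (-1.24 ± 0.24) and NMD4 with IYLR362W. Higher pairs were CYS3 with IYAL012W (0.82 ± 0.20), HYP2 with the region before it, IYEL035C (0.68 ± 0.18), LDB7 with IYBL007C (0.85 ± 0.21), COX20, of cytochrome oxidase assembly (0.998 ± 0.23), with IYDR231C (0.95 ± 0.23), ILV3 with ESS1, a prolyl isomerase gene (0.74 ± 0.14), MEH1 with IYKR006C, and YNR014W with its own flank. By chromosome, the ORF median was highest on chromosome I, at 0.25 over 85 ORFs and 0.34, 0.20, 0.21 and 0.20 on the 4 arrays. The other chromosomes had medians of 0.02 to 0.13.

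The array also held 30 overlapping or adjoining pieces named for 1 gene, YBR286W (APE3, a vacuolar aminopeptidase gene). Their fitted means ran from -0.02 to 0.55 with a median of 0.13, an SD between pieces of 0.12 and no call.

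The smaller classes differed in level and in how well the arrays matched. The tRNA genes stood at the array median: 41 features had a median of -0.00, and 39 of them lay within 0.5 of it. Their inputs were bright, with a median percentile of 79.8. Whether spots of tRNA genes share sequence with other copies was not tested. The single call was TV(UAC)B, a valine tRNA gene, at 0.68, 0.60, 0.79 and 0.57 (0.66 ± 0.17, n = 4, limma adjusted p = 0.0393). This call was kept in 0 of 4 fits that each left out 1 wild-type array. TR(CCG)L (0.37 ± 0.25), TI(UAU)L (0.34 ± 0.21) and TS(CGA)C (0.34 ± 0.27) came next. TH(GUG)M was lowest, at -0.44, -0.56 and -0.46 on arrays 039, 136 and 230 (-0.51 ± 0.26, adjusted p = 0.338). With array 136 as labelled the class median was 0.01 and TV(UAC)B, at 0.34, did not pass.

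**Figure D2:**
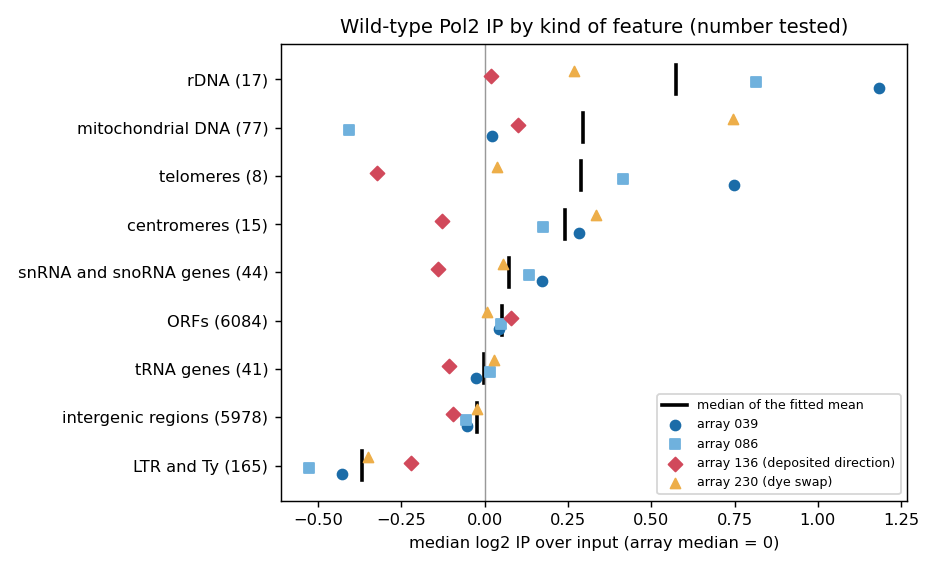
Median log2 IP over input (x axis, array median at 0) of each kind of feature (y axis, with the number tested), 1 symbol per wild-type array and a bar for the median of the fitted means. LTR and Ty features lie below 0 on all 4 arrays, from -0.53 to -0.22, while mitochondrial DNA runs from -0.41 to 0.75.

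LTR and Ty features were below the median as a class and on every array. Of 165 tested, 36 were lower (21.8%) and none higher, and 130 had a fitted mean below 0. On the single arrays 78.8%, 83.3%, 64.9% and 71.3% of those measured were below 0. The medians were -0.38 for 114 delta elements (25 lower), -0.38 for 26 Ty elements (6 lower), -0.51 for 16 tau elements of Ty4 (5 lower), -0.30 for 5 omega elements and -0.30 for 4 sigma elements, the last 2 without a call. Inputs were bright at the Ty elements, with a median percentile of 94.1, and near the middle at deltas, with 43.7. YGRCTY1-2A, a Ty1 feature, had -1.32, -1.09, -1.55 and -1.60 (-1.39 ± 0.16, adjusted p = 0.000170). YHRCTY1-1A had -1.35, -1.16 and -1.93 (-1.62 ± 0.28), YPLCTY4-1C -1.85, -1.51 and -1.01 (-1.51 ± 0.34) and YKRWDELTA10 -1.57, -1.69 and -1.30 (-1.37 ± 0.33), all without array 136. These 4 did not overlap 0 on any array. Whether spots of repeated elements share sequence with other copies was not tested.

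The highest LTR features were not called. YFLWTAU1 gave -1.16, 6.21, 1.91 and 3.41 from a spot with 4 to 16 units above background in its dimmer channel, and YPRCDELTA22 gave 0.03, 4.24 and -2.52 on arrays 039, 136 and 230. YFL-TYA was at 0.52 ± 0.39 and YILCDELTA5 at 0.50 ± 0.39. Turned as labelled, array 136 left the class median at -0.32, with 3 calls, YHRCTY1-1A among them (adjusted p = 0.0256).

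Mitochondrial DNA fell into a small set of features that were low on every array and a larger set whose level depended on the array. Of 77 features, 10 were lower, with fitted means from -3.45 to -1.15, and the next lowest was at -0.71. INTQ0185A was the lowest feature of the whole array set, at -3.32, -3.34, -3.90 and -3.25 (-3.45 ± 0.26, n = 4, limma adjusted p = 3.23e-06). Q0190A had -2.92, -3.02, -2.95 and -2.46 (-2.84 ± 0.22), Q0185D -2.94, -2.83, -2.46 and -2.03 (-2.56 ± 0.24) and Q0085, the ATP6 gene of the ATP synthase, -2.13, -1.93, -2.76 and -2.32 (-2.28 ± 0.36). Each of these 4 kept its call without each wild-type array, and none of their values came near 0.

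The other low features were Q0180 (-2.13 ± 0.33), Q0190B (-2.07 ± 0.23), Q0350 (-1.75 ± 0.36), Q0185A (-1.49 ± 0.25), 21S_RRNA0 (-1.32 ± 0.15) and Q0185H (-1.15 ± 0.20). By name, 7 of the 10 fall between Q0180 and Q0190B, although other features of that stretch were not called, such as Q0185E at 0.30 ± 0.25 and Q0183A at -0.13 ± 0.21. Q0080, the ATP8 gene named just before ATP6, was at 0.36 ± 0.22, and 21S_RRNA1 and 21S_RRNA2, named for the same large ribosomal RNA as 21S_RRNA0, were at 0.25 ± 0.18 and 0.33 ± 0.24. The 10 low features had a median input percentile of 69.1 and the other 67 one of 20.9. Across the 77 features the fitted mean and the input percentile had a Spearman's rho of -0.68, where the input is also the denominator of the ratio.

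The remaining mitochondrial features had a median of 0.31. Their gene features included COB, of cytochrome b, at 0.14, -0.20, 0.53 and 0.96 (0.36 ± 0.17), COX1 at 0.16 ± 0.34, COX3 at 0.47 ± 0.25 and OLI1, a subunit gene of the ATP synthase, at 0.56 ± 0.21. VAR1, the gene of a mitochondrial ribosomal protein, was at 0.66, -0.17 and 1.22 (0.72 ± 0.28). Q0015 had the highest fitted mean (1.35 ± 0.47), but its values on arrays 039, 086 and 230 were -0.37, -1.31 and 3.63, and its input on array 230 lay at percentile 0.94. Q0040 had 0.90, 0.45 and 0.75 (0.86 ± 0.24) and Q0095 0.48, -0.34 and 1.20 (0.72 ± 0.29) on the same arrays, and none of the 3 passed. Features above 0 numbered 39 of 77 on array 039, 14 of 77 on array 086, 29 of 47 on array 136 and 64 of 77 on array 230, and the class medians were 0.02, -0.41, 0.10 and 0.75. As labelled, array 136 left the class median at 0.33 and ended all 10 lower calls, with INTQ0185A at -1.50 and Q0190A at -1.52. The class median was -0.21 with the IP in Cy5 alone.

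**Figure D3:**
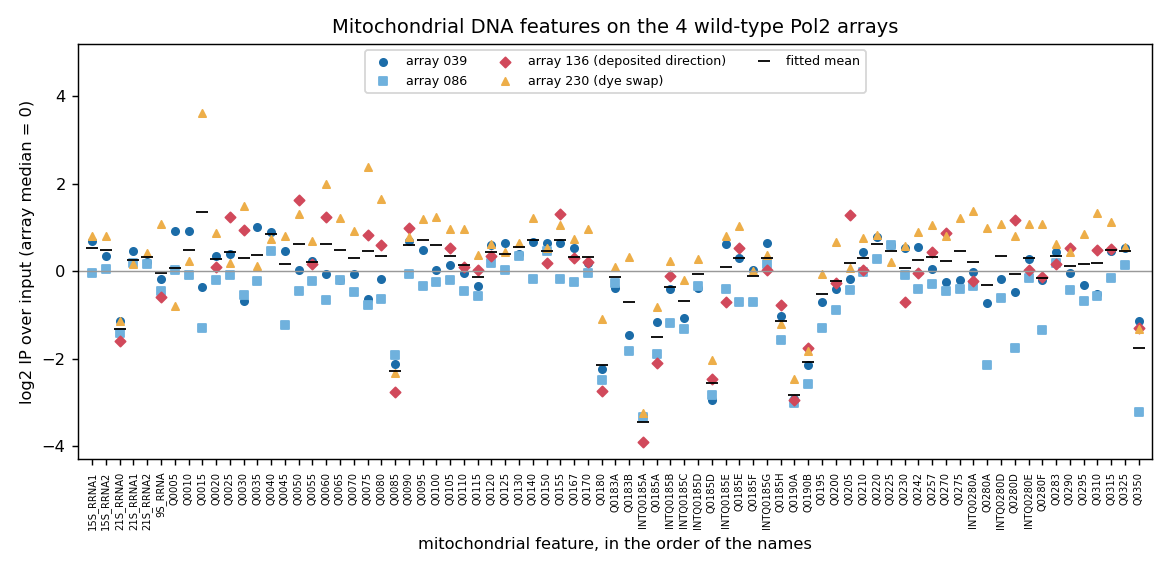
Log2 IP over input (y axis, array median at 0) of 77 mitochondrial features in the order of their names (x axis), 1 symbol per wild-type array and a dash for the fitted mean. The 10 features called lower lie at -0.77 or below on every array that measured them, while most others lie highest on array 230 and lowest on array 086.

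The ribosomal DNA was above the median on arrays 039 and 086, which carried the IP in Cy5, and nearer to it on the others. Those are array 230, with the IP in Cy3, and array 136, whose direction is not settled. The 17 features had medians of 1.18, 0.81, 0.02 and 0.27 on the 4 arrays and a median fitted mean of 0.58, and none was called in either direction. Array 039 had 17 of 17 features above 0, array 086 16 of 17, array 136 3 of 6 and array 230 10 of 17. RDN25-1A, a piece of the 25S gene, was highest at 1.72, 2.13 and 0.65 on arrays 039, 086 and 230 (1.39 ± 0.37, adjusted p = 0.0547). RDN25-1 had 1.90, 1.21, 0.06 and 0.37 (0.89 ± 0.35), and the 5S gene RDN5-1 1.72, 0.98 and 0.41 (0.92 ± 0.33). IRDN5-1, a spacer beside the 5S gene, was at 1.13 ± 0.37. RDN18-1, of the 18S gene, had 1.27, 0.59, -0.66 and -0.39 (0.20 ± 0.27), and RDN37-1C was lowest at -0.46 ± 0.31. Inputs were bright, with a median percentile of 97.4. The median was 0.51 with array 136 as labelled.

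Centromeres had a median of 0.24 over 15 features with no call. CEN11 was the most even, at 0.42, 0.55, 0.60 and 0.65 (0.56 ± 0.16, adjusted p = 0.0690), CEN9 was at 0.68 ± 0.21, and CEN4 was lowest at -0.31 ± 0.17. Among 8 telomere features (median 0.29), TEL15R-4 passed at 1.13, 1.14 and 0.33 on arrays 039, 086 and 230 (0.76 ± 0.19, adjusted p = 0.0393). Its input lay at percentiles 98.1, 6.4 and 99.05 on these arrays. The call was kept in 0 of 4 fits that each left out 1 wild-type array. Other pieces of the same end were at 0.34 ± 0.19 (TEL15R-6) and -0.42 ± 0.28 (TEL15R-2). The snRNA and snoRNA genes had a median of 0.07 over 44 features, and SNR64, a box C/D snoRNA gene, was the only one called, at 0.67, 0.76 and 0.68 (0.77 ± 0.17, adjusted p = 0.0228). SNR64 kept its call in 1 of the 4 fits without a wild-type array. SNR37 was lowest at -0.95 ± 0.28 and SNR189 was even at -0.62, -0.62, -0.57 and -0.57 (-0.59 ± 0.17), neither past the threshold. With array 136 as labelled the medians were 0.24, 0.30 and 0.13 for centromeres, telomeres and snRNA and snoRNA genes, and no member passed. With the IP in Cy3 alone all 3 medians were below 0, at -0.069, -0.08 and -0.079.

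The ratio moved with the brightness of the input. The median input percentile was 33.7 for features called higher, 75.03 for those called lower and 49.3 for those not called. With features split into 5 equal bins by input, in the dimmest bin the median fitted mean was 0.21 with 45 higher and 11 lower features, and in the brightest bin -0.11 with 9 higher and 143 lower. Spearman's rho between ratio and input percentile was -0.17, -0.19, -0.51 and -0.27 on the 4 arrays and -0.34 for the fitted mean, where the input is the denominator of the ratio. After loess normalisation within arrays it was -0.19, and 118 features were higher and 267 lower. Among ORFs the fitted mean did not follow length (rho 0.01 over 5574 ORFs).

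**Figure D4:**
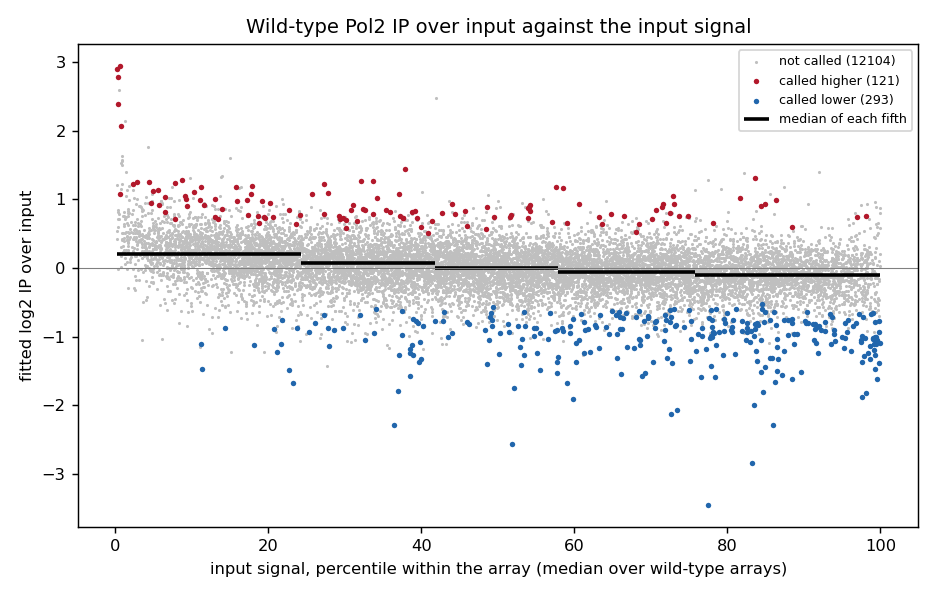
Fitted log2 IP over input in wild type (y axis) against the input signal as a percentile within the array (x axis), 1 point per feature, with called features in colour and a bar for the median of each of 5 equal bins of input. The bars fall from 0.21 in the dimmest bin to -0.11 in the brightest.

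The 2 differences below share the 4 wild-type arrays. Against the arrays labelled rrm3 delete, no feature was higher in wild type and 69 of 12465 were lower (0.554%). Of these, 40 were intergenic regions, 10 of them among the 239 beside tRNA genes, 17 were ORFs, 8 were among the 41 tRNA genes, 2 were telomere features and 2 LTR features. None of the 69 was itself called in wild type, where 12104 of all 12518 features were not called. Their median was 0.01 in wild type, against 1.27 on arrays labelled rrm3 delete. These medians come from the values that picked the 69, so a gap between them was set by that choice. The same holds for each called feature named below. TV(CAC)D, a valine tRNA gene, had 0.23, 0.02, -0.23 and -0.09 in wild type, against 1.33 to 2.04 on arrays labelled rrm3 delete, a difference of -1.64 ± 0.21 (adjusted p = 0.00204). The ranges of the 2 groups did not overlap, at a feature that these same values picked. The share of all features with such a gap is not given here. Over all 41 tRNA genes the median was -0.00 in wild type, against 0.85 on arrays labelled rrm3 delete, and the median difference was -0.90.

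The lowest differences were at IYLL065W (-1.97 ± 0.21), IYAL069W (-1.95 ± 0.25), IYPL283C-1 (-1.87 ± 0.23) and IYLR461W-0 (-1.81 ± 0.22), all near chromosome ends by their names. IYLR461W-0 was at 0.36, 0.37 and 0.38 in wild type, against 2.08 to 2.34 on arrays labelled rrm3 delete. The 4 smallest called differences were at TC(GCA)P2 (-0.86 ± 0.17), the mitochondrial ribosomal protein gene MRPS8 (-0.83 ± 0.18), YGR164W (-0.80 ± 0.17) and DAN4, a cell wall mannoprotein gene (-0.75 ± 0.16). With array 136 as labelled 40 features were lower, and 14 were lower without array 239, 11 without array 039, 5 without array 086, 30 without array 136, 6 without array 230, 16 without array 040, 18 without array 183 or array 137, 41 without array 240 and 225 without array 031. Either dye orientation alone gave none.

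**Figure D5:**
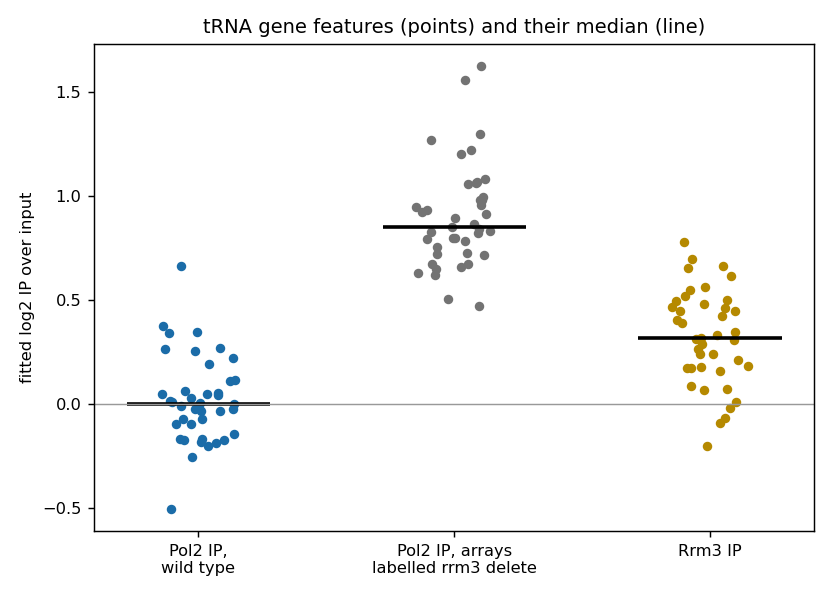
Fitted log2 IP over input (y axis) of 41 tRNA gene features in the wild-type Pol2 IP, the Pol2 IP on arrays labelled rrm3 delete and the Rrm3 IP (x axis), 1 point per gene and a line for the median. The medians are -0.00, 0.85 and 0.32, and the wild-type points run from -0.51 to 0.66.

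Against the Rrm3 IP, 1 of 12411 features was lower in wild type (0.00806%) and none higher, with 1344 at an unadjusted p under 0.05. The feature was 21S_RRNA0, at -1.14, -1.41, -1.59 and -1.13 in the wild-type Pol2 IP, against -0.11 to 0.49 in the Rrm3 IP (difference -1.51 ± 0.21, adjusted p = 0.0325). The groups did not overlap, with 4 Rrm3 IP arrays measuring this feature. It was picked by these same values, and the share of all features with such a gap is not given here. It did not pass with array 136 as labelled (-0.86, adjusted p = 0.475), and no feature was lower without array 039, 086, 136, 040, 183, 137, 239, 240, 041, 031, 184 or 185. Class medians in the 2 IPs were 0.30 in the Pol2 IP and 0.65 in the Rrm3 IP for mitochondrial DNA, 0.58 and 0.77 for the ribosomal DNA, and -0.00 and 0.32 for tRNA genes.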

How the data were processed

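The 4 wild-type Pol2 arrays were taken by title from 16 two-colour ChIP-chip arrays, of which 15 fall into groups; the labels of array 231 contradict each other and it entered no comparison. The deposited value table holds log2 IP over input per feature, which the authors, per the labels' design text, normalised on the median. Set against the scanner files, it is the mean of unflagged spots of the same name (at least 99.66% within 0.006 on each array), turned on dye swaps and on array 136. The deposited scanner files give median intensity values of each spot and its background in both channels. The sources used here do not name the scanner, the software or the genome build.

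Columns were centred on the array median. With limma 3.58.1 (R 4.3.3), a linear model of group means plus dye was fitted over all 15 grouped arrays (moderated variance, prior degrees of freedom 5.82), for features on at least 3 wild-type arrays. Each mean was tested against 0 and 2 differences were tested, two-sided, with Benjamini-Hochberg adjustment over all features tested and a threshold of 0.05. On simulated data for the wild-type comparison, 95% of features shifted by 1 were recovered. The simulated noise was independent, with a fixed spread and no dye effect. The share recovered therefore checks the fit and not its power on the real arrays. The series text speaks of at least 3 biological replicates and 1 technical dye swap without naming the arrays, so p-values reflect only how these arrays vary, which may be technical. The number of arrays limits the precision.

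Features were classed by name, and 6 features named for mitochondrial ribosomal RNAs were put with mitochondrial DNA after the names were seen. The R64 reference table, used for symbols and gene order only, held a locus tag for 5677 of 6203 ORF names. The named ORFs are the 12 highest and 12 lowest called, given 1 sign on all arrays that measured them, the named intergenic regions the 6 highest and 6 lowest, and in each smaller class the 4 highest and 4 lowest. In each gene list they are the called members, or else the 2 highest and 2 lowest, and in each difference the 4 highest and 4 lowest called. Other features singled out were chosen after their values were seen. Members, classes and lists were chosen with earlier results of these data known. The alternatives in the closing section cover direction, arrays, dye, centring, filters, background correction and normalisation.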

Additional observations from a re-analysis of the deposited data

Results flagged for a closer look

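On 5 of 91 sets of 4 wild-type values examined, 1 array stood apart from the other 3, about the 1 in 20 that chance gives. They were INTQ0185A on array 136 (-3.90), ILV3 (YJR016C) on array 136 (0.48), RPL4B (YDR012W) on array 136 (1.41), the median of amino acid biosynthesis genes on array 136 (0.40) and the median of ergosterol biosynthesis genes on array 230 (0.066).

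The Pol2 IP was lower in wild type than on the arrays labelled rrm3 delete, by a test of the difference itself, at IYLL065W (-1.97), IYAL069W (-1.95), IYPL283C-1 (-1.87), IYLR461W-0 (-1.81), TC(GCA)P2 (-0.86), MRPS8 (YMR158W, -0.83), YGR164W (-0.80) and DAN4 (YJR151C, -0.75). The wild-type Pol2 IP was lower than the Rrm3 IP at 21S_RRNA0 (-1.51).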

How the results depend on the processing

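No paired analysis was possible because the labels do not say which arrays share an extract. The direction of array 136, the single arrays and the dye limit these results, and dim spots limit single features. None of the 66 called wild-type features recomputed by name changed sign. Of 24 medians of classes and lists, 11 changed sign under at least 1 of the settings: tRNA genes, intergenic regions, mitochondrial DNA, snRNA and snoRNA genes, centromeres, telomeres, polymerase epsilon, replication, the respiratory chain, ribosome biogenesis and repressed genes. The causes were not tested.

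In wild type, leaving out single arrays gave 16 to 447 higher and 63 to 649 lower features, against 121 and 293. Higher and lower features numbered 5 and 29 with array 136 as labelled, 503 and 720 without arrays 031 and 041, 320 and 574 with the wild-type arrays alone, 0 and 10 with the IP in Cy5 alone, 57 and 83 with it in Cy3 alone, and 53 and 182 without arrays 136 and 182, a setting chosen after seeing the data. There were 76 higher without a dye term, 198 higher without background subtraction and 185 lower without centring.

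Against the arrays labelled rrm3 delete (69 lower), single arrays left out gave 5 to 225. The count was 40 with array 136 as labelled, 238 without arrays 031 and 041, 37 without a dye term, 0 within either orientation, 38 with normexp or loess, and 22 without centring or without arrays 136 and 182. Against the Rrm3 IP (1 lower), single arrays left out gave 0 to 1, arrays 031 and 041 left out gave 5 higher and 7 lower, and failed PCR products left out gave 2. It was 0 with array 136 as labelled, without a dye term, with the IP in Cy5 alone, without centring, without background subtraction, with normexp, with loess and without arrays 136 and 182.

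With array 136 as labelled, medians were 0.0077 for ORFs, -0.043 for replication, 0.50 for glycolysis and fermentation, 0.195 for permeases, 0.0040 for the proteasome, -0.015 for ribosome biogenesis, 0.38 for plasma membrane and cell wall genes, -0.79 for the silent cassettes and 0.14 for ribosomal proteins. With the IP in Cy5 alone they were -0.21 for mitochondrial DNA, 0.038 for replication, 0.38 for translation factors and 0.16 for permeases. With it in Cy3 alone they were -0.079 for snRNA and snoRNA genes, -0.069 for centromeres, -0.25 for polymerase epsilon, 0.16 for permeases, 0.12 for the respiratory chain, 0.18 for the proteasome, 0.54 for plasma membrane and cell wall genes and -0.13 for repressed genes. Without centring they were 0.10 for ORFs, 0.027 for intergenic regions, 0.16 for replication, 0.31 for permeases, 0.0054 for the respiratory chain and 0.31 for ribosomal proteins. Without background subtraction they were -0.097 for tRNA genes, 0.20 for permeases, 0.33 for plasma membrane and cell wall genes and 0.18 for ribosomal proteins. Without failed PCR products they were -0.18 for polymerase epsilon and 0.15 for permeases, and on all 4 arrays 0.12 for permeases and 0.55 for plasma membrane and cell wall genes. The permeases were at 0.22 without a dye term, with wild-type arrays alone and with normexp, and at 0.16 with loess. Replication was at -0.0090 without arrays 136 and 182. Single arrays left out gave 0.18 to 0.30 for permeases and -0.0031 to 0.11 for replication.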

Other observations

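Array 231 entered no group because its labels contradict each other. Across features it correlated at 0.41, 0.30, 0.35 and 0.48 with wild-type arrays 039, 086, 136 and 230. With the arrays labelled rrm3 delete the correlations were 0.22 to 0.56, and with the Rrm3 IP arrays 0.11 to 0.48. Its group was not tested.

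Intron features, a class not described above, had a median of 0.09 over 19 features in the wild-type Pol2 IP, with array medians of 0.24, 0.21, -0.05 and 0.08 and no call. Within mitochondrial DNA the Pearson correlations between arrays were 0.60 to 0.90 over 47 to 77 features, although the array levels differed. These values include the features called lower, which were low on every array. The correlation among the remaining features was not tested, so a shared order of those features is not shown.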
